A study of Homo sapiens with 8 samples.

Results

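The 47 genes described here are canonical estrogen response genes, such as CA12, SIAH2, MYB, STC2, SLC7A5, KRT19 and CBFA2T3, of the 20033 protein-coding genes in the GENCODE annotation. They were listed by name as known estrogen response genes, with earlier results of these data known, and each was followed across its gene body and 50 kb either side. These windows spanned 102 to 281 kb, with a median of 139 kb against 127 kb for the other protein-coding genes. The study sequenced the DNA precipitated with an ER antibody (ChIP-seq) from LY2, an ER+ breast cancer line that is resistant to endocrine therapy. All cells were depleted of serum for 24 hours in medium free of 4-OHT, were transfected with a control siRNA (siCtrl) or an siRNA against CDK12 (siCDK12) for 48 hours, and then received 1 µmol/L β-estradiol for 1 hour. There are peak lists of 4 ER libraries, replicates 2 and 3 of siCtrl and replicates 3 and 4 of siCDK12. The comparison asked whether ER was still found at these genes once CDK12 had been knocked down.

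The estrogen receptor is a nuclear receptor that binds estradiol, dimerizes and settles on DNA at the estrogen response element, a palindrome of GGTCA and TGACC held apart by a short spacer, or on DNA bound by partners such as AP-1. In breast cancer cells it binds mostly at enhancers away from the transcription starts of the genes it controls, where it recruits coactivators and the Mediator complex. CDK12 is a kinase that phosphorylates the tail of RNA polymerase II and is needed for productive transcription of long genes.

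Peaks with a q-value under 0.05 were used, and overlapping peaks of the 4 libraries were joined to 25365 sites. Where both siCtrl libraries had a peak, the site is called a siCtrl site. It is called lost when neither siCDK12 library had a peak there, kept when both did, and the mirror of a lost site is called gained. Lists held 12021 and 4955 used peaks in siCtrl and 4819 and 5224 in siCDK12, so siCtrl replicate 2 stood apart by the size of its list. The background pileup of fragments shared by many peaks came to 1.01 and 1.16 for siCtrl and to 1.23 and 1.18 for siCDK12, and read totals are not part of peak lists. No library had a peak in the window of CDK12 itself, and since peak lists hold no expression, neither the knockdown nor the identity of the cells could be checked in these files. The labels give 1 cell line, and nothing there says that the libraries came from separate cultures, so p-values measure only the spread between these libraries.

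The sites at these genes are introduced by their sequence, because the element is what the receptor reads. Of the 12 siCtrl sites at the 47 genes, 3 held an estrogen response element within 100 bp of the summit, with 1 mismatch among the 10 fixed bases. Each is shown 5′ to 3′ on the + strand of GRCh38, with the 13 bases of the element in capitals and 15 flanking bases on either side.
SLC22A5 (chr5:132378763-132378805): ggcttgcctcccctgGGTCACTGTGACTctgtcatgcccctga
KRT19 (chr17:41506876-41506918): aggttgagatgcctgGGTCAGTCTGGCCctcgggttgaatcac
HSPB8 (chr12:119171412-119171454): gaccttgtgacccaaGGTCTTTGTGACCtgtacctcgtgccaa
At SLC22A5 and KRT19 the peak was lost in siCDK12, and at HSPB8 it was seen in a single siCDK12 library. The element lay 7 bp from the summit at SLC22A5, 27 bp at KRT19 and 48 bp at HSPB8.

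Another 5 siCtrl sites held at best an element with 2 mismatches. They are shown in the same way so that weaker matches can be set beside the ones above.
SIAH2 (chr3:150737357-150737399): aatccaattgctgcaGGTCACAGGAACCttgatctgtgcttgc
WWC1 (chr5:168316554-168316596): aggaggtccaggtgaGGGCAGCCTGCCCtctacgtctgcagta
CLIC3 (chr9:137000990-137001032): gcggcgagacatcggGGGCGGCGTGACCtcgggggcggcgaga
CBFA2T3 (chr16:88927233-88927275): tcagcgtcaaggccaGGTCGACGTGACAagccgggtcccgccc
CBFA2T3 (chr16:88975096-88975138): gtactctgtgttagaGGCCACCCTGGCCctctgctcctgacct
The WWC1 sequence comes from the only one of the 12 sites with a peak in all 4 libraries. The remaining 4 siCtrl sites, at SLC7A5, TJP3 and CBFA2T3, held no element with up to 2 mismatches in that window.

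A short motif bound by AP-1, TGANTCA, was found within 100 bp of the summit at 3 of the 12 sites, each of them lost in siCDK12. Elsewhere 37 of the 51 siCtrl sites with this motif were lost, and it was at 8.28% of lost sites against 7.79% of all siCtrl sites there. This pattern reads the same on both strands, and its bases are in capitals here.
SLC22A5 (chr5:132378726-132378762): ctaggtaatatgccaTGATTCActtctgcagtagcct
KRT19 (chr17:41506896-41506932): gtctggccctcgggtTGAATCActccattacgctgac
SLC7A5 (chr16:87790184-87790220): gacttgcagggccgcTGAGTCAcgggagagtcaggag
SLC22A5 and KRT19 thus carried both motifs close to one summit, without overlap, while SLC7A5 carried the AP-1 motif alone.

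Across all 47 genes, fewer ER peaks were called in siCDK12 than in siCtrl. Replicates 2 and 3 of siCtrl had 36 and 25 peaks there, and replicates 3 and 4 of siCDK12 had 13 and 16, so the conditions did not overlap. The ratio of the means, 14.5 over 30.5, was 0.475 (p = 0.333, two-sided exact permutation of 2 against 2 libraries), which is the smallest p that this design can give. Because the lists differ in size, the share of each library's peaks was also taken. The siCtrl shares were 0.299% and 0.505%, and those of siCDK12 were 0.270% and 0.306%, so the conditions overlapped, with siCDK12 replicate 4 just above siCtrl replicate 2. The ratio of the mean shares, 0.288% over 0.402%, was 0.716 (p = 0.667, same exact permutation). Without siCtrl replicate 3 the ratio of shares was 0.962. With an equal number of peaks from each library, the strongest by q-value, the ratio of shares was 0.540 (p = 0.333, same exact permutation). Of the 47 genes, 25 and 18 had any peak in siCtrl, while 11 and 13 had one in siCDK12. The share of other genes with any peak was not counted by library, so these numbers cannot be told apart from the sizes of the lists.

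**Figure D1:**
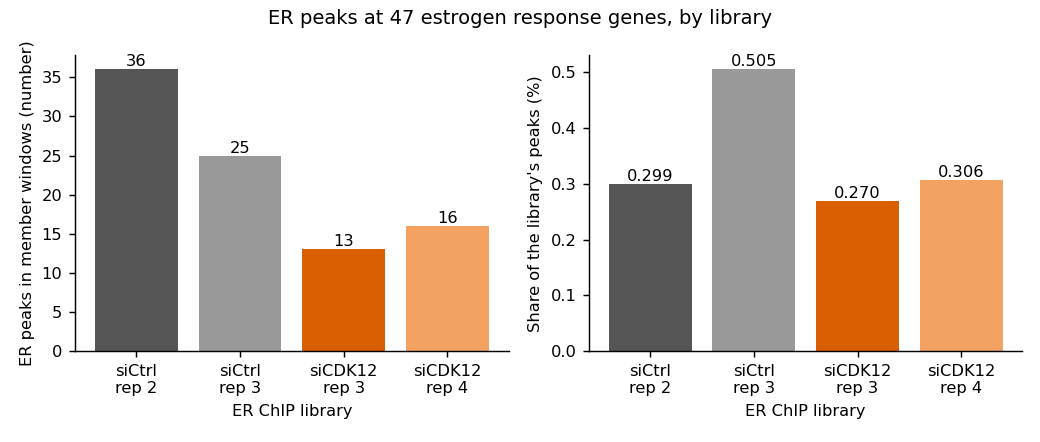
ER peaks with a q-value under 0.05 in the windows of the 47 genes, as a number (left axis) and as a percentage of all used peaks of the library (right axis), with 1 bar per library. Both siCtrl bars exceed both siCDK12 bars on the left (36 and 25 against 13 and 16), while on the right siCDK12 replicate 4 (0.306%) exceeds siCtrl replicate 2 (0.299%).

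The difference was larger among strong peaks. With a -log10 q above 3, siCtrl replicates 2 and 3 had 21 and 13 peaks at these genes, and siCDK12 replicates 3 and 4 had 4 and 3. Expressed as a share of all peaks past that threshold, these were 0.953% and 1.15% in siCtrl and 0.625% and 0.467% in siCDK12, so the shares no longer overlapped. The siCDK12 shares rest on few peaks, however. Where strong peaks were instead those with a fold of at least 5, the shares did overlap, with a ratio of means of 0.583 (p = 0.667, two-sided exact permutation of 2 against 2 libraries). With a -log10 q above 5, the numbers were 18 and 11 against 2 and 1, and the shares 2.22% and 2.35% against 1.54% and 0.917%. The 2 strong siCDK12 replicate 3 peaks were those of WWC1 and CLIC3, and the single one of replicate 4 was that of WWC1. Strong peaks fell in number over the whole genome too, from 809 and 468 to 130 and 109 at a -log10 q above 5, and the part of that in the lower number at these genes was not tested.

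A siCtrl site was present at 9 of the 47 genes (19.1%), SIAH2, CBFA2T3, WWC1, SLC7A5, SLC22A5, CLIC3, KRT19, TJP3 and HSPB8. The background over the 19986 other protein-coding genes was 3.67%, and at that rate by window length 1.73 of the 47 genes would have had one. At least 1 lost site was found at 6 genes (12.8%), SIAH2, CBFA2T3, SLC7A5, SLC22A5, KRT19 and TJP3, against 2.83% of other genes and 1.34 by window length. A site in both siCtrl and 1 siCDK12 library was found at 3 genes (6.38%), CBFA2T3, CLIC3 and HSPB8, against 0.751% of other genes, and a kept site at 1 (2.13%), WWC1, against 0.490%. None of the 47 genes had a gained site, against 0.290% of other genes, for which 0.134 would be counted by window length. Since the genes were chosen as known ER targets, and with earlier results known, neither an excess of ER sites in siCtrl nor the count of lost ones is an independent finding, and no test was made of either.

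**Figure D2:**
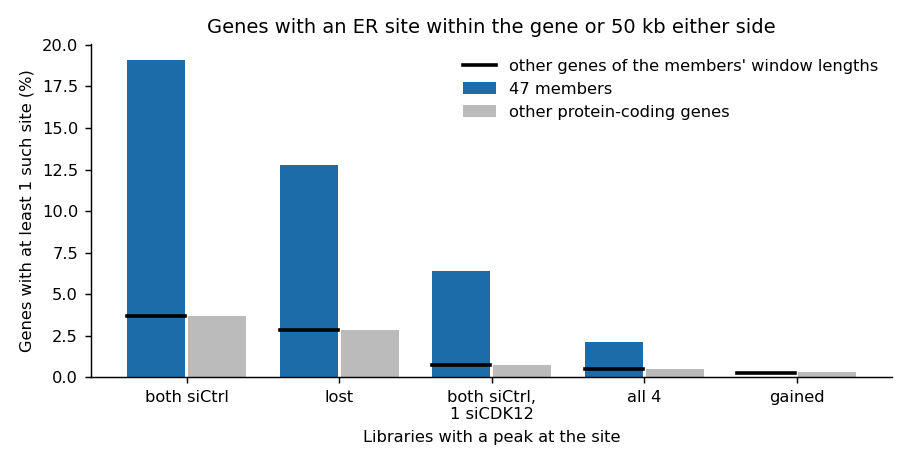
Percentage of genes with at least 1 ER site of each kind in the gene body or 50 kb either side, for the 47 genes (blue), the 19986 other protein-coding genes (grey) and other genes weighted to the same window lengths (black line). The blue bars are 19.1%, 12.8%, 6.38%, 2.13% and 0%, and the grey bars 3.67%, 2.83%, 0.751%, 0.490% and 0.290%.

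The share of siCtrl sites that was lost was close to that elsewhere in the genome. Of the 12 siCtrl sites at the 47 genes, 8 were lost (66.7%, exact Clopper-Pearson 95% interval 34.9% to 90.1%), and of the 655 siCtrl sites elsewhere 447 were lost (68.2%, 64.5% to 71.8%). Another 3 sites here and 143 elsewhere had a peak in 1 siCDK12 library, and 1 here (8.33%) and 65 elsewhere (9.92%) were kept. The intervals cover counting error only, and that of the 12 sites is too wide to show a moderate difference. Gained sites numbered 0 at these genes and 87 elsewhere.

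Among the 11 genes grouped here as transcription factors and nuclear cofactors, 8 had a site in some library and 2 had siCtrl sites, CBFA2T3 and SIAH2. The grouping is a loose one, as SIAH2 is a ubiquitin ligase. CBFA2T3 (ENSG00000129993), a corepressor of the ETO family, had the most siCtrl sites of the 47 genes, 3 in its intron 1, among 6 sites in all, a total that CALCR shared. Only 36 protein-coding genes had 3 or more siCtrl sites, and these counts include genes whose windows overlap. The site nearest its start, 2050 bp into the gene at chr16:88975028-88975308, had a fold enrichment over local background of 5.96 in siCtrl replicate 2 and 5.59 in siCtrl replicate 3, no peak in siCDK12 replicate 3, and 4.62 in siCDK12 replicate 4. The pileup at its summit, a number of fragments that follows from fold and p-value, was 43 and 42 in siCtrl and 17 in siCDK12 replicate 4. The remaining siCDK12 peak thus had fewer fragments than either siCtrl peak, over a local background that was also lower, at 2.46 times the genome floor against 6.31 and 5.77 times.

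Farther into the same intron, a pair of neighbouring CBFA2T3 sites was lost. The site at chr16:88927122-88927398, 49946 bp from the start, had folds of 7.39 and 4.67 and pileups of 32 and 26 fragments in siCtrl replicates 2 and 3. At chr16:88928479-88928720, 48557 bp from the start, the folds were 5.60 and 4.85 and the pileups 25 and 27. No siCDK12 library had a peak at either one, also in the full lists that extend past a q-value of 0.05. Since they lie close together, the pair may not be independent. CBFA2T3 had 5 peaks in siCtrl replicate 2 and 4 in siCtrl replicate 3, and 0 and 1 in siCDK12.

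SIAH2 (ENSG00000181788), an E3 ubiquitin ligase and a classic early estrogen response gene, had a lost site 3544 bp past the end of the gene, at chr3:150737289-150737581 and 25762 bp from its start. In siCtrl replicates 2 and 3 the folds were 7.25 and 3.77, with a -log10 q of 11.1 and 5.05. The pileup was higher in siCtrl replicate 3, with 28 fragments against 23, and the lower fold there went with a higher local background, 5.77 against 2.29 times the floor. The only other SIAH2 peak was one of siCDK12 replicate 4, 71263 bp from the start and nearer to ERICH6, with a fold of 4.43.

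The other 6 genes of this group with any site had peaks in single libraries only. FHL2, a LIM domain coregulator, had the strongest of these, a siCtrl replicate 2 peak in intron 2 with a fold of 8.22, a -log10 q of 11.4 and 20 fragments, which siCtrl replicate 3 lacked, besides a weak siCDK12 replicate 4 peak upstream. MYB, a transcription factor whose gene is known for estrogen control of elongation through intron 1, had a peak in that intron in siCtrl replicate 3 alone, 1289 bp from the start, with a fold of 4.91 and 18 fragments. EGR3, an immediate early zinc finger factor, had a siCtrl replicate 2 peak 45787 bp upstream with a fold of 5.25. KLF10 and TIPARP each had 1 siCtrl peak, and MYBL1 had 1 in siCDK12 replicate 4. FOS, KLF4 and ELF3 had no peak in any library.

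Of the 6 transporters, channels and ion balance genes, 3 had a siCtrl site. SLC22A5 (ENSG00000197375), the carnitine transporter OCTN2, had a lost site in intron 2, 9081 bp from its start at chr5:132378717-132378910. Replicates 2 and 3 of siCtrl had folds of 7.86 and 4.14 there, with pileups of 22 and 15 fragments. Its -log10 q of 2.77 in siCtrl replicate 3 made it the weakest of the 12 sites, and with a minimum of 3 it is no longer a siCtrl site. A peak of siCDK12 replicate 4 alone lay elsewhere, 20084 bp upstream, with a fold of 5.04.

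SLC7A5 (ENSG00000103257), the large neutral amino acid transporter LAT1, had 5 sites, with 3 peaks in each siCtrl library and 0 in both siCDK12 libraries. Its 1 siCtrl site, at chr16:87790027-87790232, was lost and had folds of 8.83 and 3.54 and the highest pileups of any lost site, 40 and 33 fragments. This site lies 39791 bp past the end of SLC7A5, and the start of KLHDC4, at 24129 bp, is nearer, so its tie to SLC7A5 rests on the window alone. Another SLC7A5 peak, in its intron 1 in siCtrl replicate 3 only, had a fold of 4.41 and an element with 1 mismatch.

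CLIC3 (ENSG00000169583), of the chloride intracellular channel family, had a site 4467 bp upstream of its start at chr9:137000883-137001193, in a gene-dense region where 11 protein-coding windows hold it. The fold was 26.9 in siCtrl replicate 2, 7.43 in siCtrl replicate 3 and 7.11 in siCDK12 replicate 3, with no peak in siCDK12 replicate 4. The folds of the latter pair were close while their pileups, 49 and 17 fragments, were not, as the local background was 4.94 times the floor in siCtrl replicate 3 and 1.25 times in siCDK12 replicate 3. CA12, a carbonic anhydrase and a well-known estrogen response gene, had 1 weak peak in siCDK12 replicate 3 with a fold of 3.34, 46328 bp upstream. KCNK5, a potassium channel, and SLC39A6, the zinc transporter LIV-1, had no peak.

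Among the 8 keratin, junction and membrane traffic genes, KRT19 and TJP3 had siCtrl sites, and all 3 of these sites were lost. TJP3 (ENSG00000105289), the tight junction scaffold ZO-3, had a pair of neighbouring lost sites in intron 11, at chr19:3737196-3737461 and chr19:3737854-3738112. The former had folds of 17.9 and 5.18 and pileups of 35 and 24 fragments in siCtrl replicates 2 and 3. The latter had folds of 6.02 and 9.74 and pileups of 16 and 20. The siCtrl libraries thus ranked the pair in opposite order by fold, and neither site held an element. Both sites are nearer to the start of APBA3 than to that of TJP3.

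KRT19 (ENSG00000171345), a keratin of simple epithelia and a luminal marker, had a lost site at chr17:41506761-41506987 with folds of 6.97 and 4.81 and pileups of 25 and 20 fragments. It lies 16630 bp past the end of KRT19 within the type I keratin cluster, 1258 bp from the start of KRT13, and in the windows of 6 protein-coding genes. KRT8 had 1 siCtrl replicate 3 peak and KRT18 had none. MREG had 1 peak in each siCtrl library at different places in intron 2, of which the siCtrl replicate 2 peak held an element with 1 mismatch. TPD52L1 had 1 siCtrl replicate 2 peak, SYBU had 2 peaks in siCDK12 replicate 4 alone, and ANXA9 had none.

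The group of 14 secreted factors, receptors and signalling genes had sites at 9 members but only 1 siCtrl site, at WWC1 (ENSG00000113645), a scaffold of the Hippo pathway also called KIBRA. This site, in intron 1 at chr5:168316379-168316685 and 24891 bp from the start, was the strongest of the 12 and the only one kept. It ranked 27 of all 667 siCtrl sites by its lower siCtrl -log10 q. Its fold was 11.5 in siCtrl replicate 2, 13.0 in siCtrl replicate 3, 6.88 in siCDK12 replicate 3 and 10.8 in siCDK12 replicate 4. Its pileups in siCtrl were 94 and 74 fragments, and those in siCDK12 were 36 and 39, so that both siCDK12 values lay below both siCtrl values. By -log10 q within its library the peak ranked 37 and 28 in siCtrl, and 15 and 5 in siCDK12.

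Other members of that group had scattered peaks. CALCR, the calcitonin receptor, had 6 sites, with 4 peaks in siCtrl replicate 2, 0 in siCtrl replicate 3, and 1 and 2 in siCDK12. The strongest of these, in intron 2 in siCtrl replicate 2, had a fold of 5.89. STC2, a secreted glycoprotein induced by estrogen, had 4 sites upstream of its start. Its most strongly bound site, 26728 bp upstream, had folds of 4.98 in siCtrl replicate 2 and 3.50 in siCDK12 replicate 3, and a peak in siCtrl replicate 3 that missed the q-value of 0.05. RAPGEFL1, of the family of RAP exchange factors, had a siCtrl replicate 2 peak in intron 1 with a fold of 6.38 and a siCDK12 replicate 3 peak upstream with a fold of 4.04. ADCY9, an adenylyl cyclase, had 1 peak in every library, each at another place. AREG, an EGF receptor ligand, had 1 peak in siCtrl replicate 2 and 1 in siCDK12 replicate 4, RHOBTB3 had 1 in each siCtrl library, and CISH and INPP5F had 1 in siCtrl replicate 2. P2RY2, CELSR2, OLFM1, RASGRP1 and RAB31 had none.

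Of the 3 chaperone and apoptosis genes, HSPB8 (ENSG00000152137), a small heat shock protein of chaperone-assisted autophagy, had a site that ranked 42 of the 667 siCtrl sites by the lower siCtrl -log10 q, next after WWC1 among the 12. This site, at chr12:119171240-119171529, lies 7546 bp upstream of the canonical start and 26 bp outside the annotated gene. The fold was 9.74 in siCtrl replicate 2, 13.5 in siCtrl replicate 3 and 3.77 in siCDK12 replicate 3, and the pileup was 62, 50 and 21 fragments, with no peak in siCDK12 replicate 4. Its siCDK12 peak had a -log10 q of 3.08, so a minimum of 5 removes it and the site becomes a lost one. FKBP5, the glucocorticoid receptor cochaperone, had 4 sites, each in a single library, and PMAIP1, the BH3-only protein NOXA, had none.

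None of the 5 lipid, heme and retinoid metabolism genes had a siCtrl site. CYP26B1, a retinoic acid hydroxylase, had 5 sites, with 0 and 1 peaks in siCtrl and 2 in each siCDK12 library, all at different places and with folds from 3.34 to 4.40. ABHD2 had a siCtrl replicate 2 peak in intron 6 and a siCDK12 replicate 4 peak in intron 1, the latter with a fold of 5.44. ELOVL5 had 1 peak, in siCDK12 replicate 3, UGCG had 1, in siCtrl replicate 2, and BLVRB had none.

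**Figure D3:**
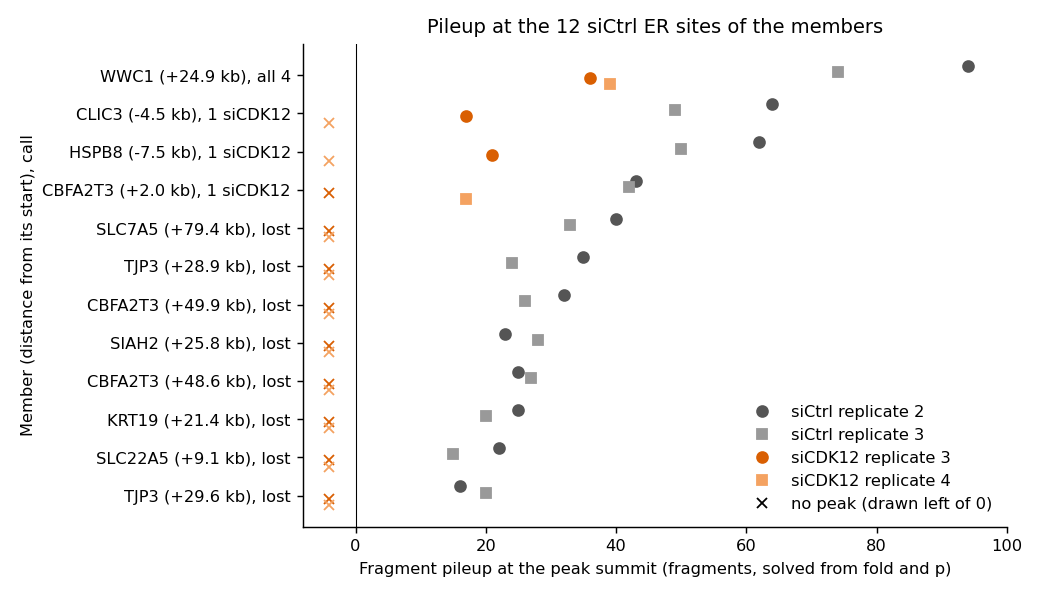
Fragment pileup at the summit of each of the 12 siCtrl sites in each library, with crosses left of 0 where a library had no peak, and sites in order of their pileup in siCtrl. Where a siCDK12 library had a peak, at 4 sites, its pileup of 17 to 39 fragments lies below both siCtrl values of the same site (42 to 94).

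The 12 sites were mostly distal. None lay within 1 kb of the canonical start of its gene, 7 were in an intron, 2 upstream and 3 downstream. The HSPB8 site, however, lay 26 bp from the annotated 5′ end of its gene, where other transcripts begin. The gene named had the nearest protein-coding start at 8 of them, and only 4 lay in the window of a single protein-coding gene. No site lay in the windows of 2 or more of the 47 genes.

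**Figure D4:**
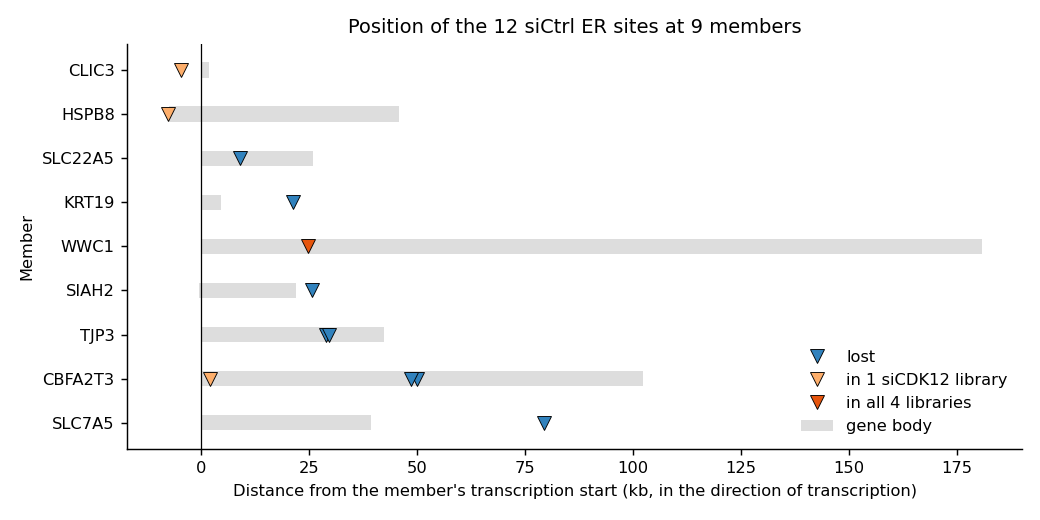
Position of the 12 siCtrl sites relative to the canonical transcription start of each gene in kb, in the direction of transcription, with the annotated gene body as a grey bar and colours for the siCDK12 call. Sites range from 7546 bp upstream, at HSPB8, to 79392 bp downstream, at SLC7A5, and the lost ones all lie downstream of the start.

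By the lower of both siCtrl -log10 q values, the lost sites at these genes had been weaker than those that were not lost. In siCtrl replicate 2 alone this did not hold. There the lost sites of TJP3 (36.3) and SLC7A5 (22.8) had a higher -log10 q than the CBFA2T3 site seen in 1 siCDK12 library (16.6). When all 667 siCtrl sites were split into 3 groups of like size by the lower of both siCtrl -log10 q values, the strongest group held 4 of the 12 sites, at WWC1, CLIC3, HSPB8 and CBFA2T3, and none of these was lost. Of the 218 sites elsewhere in that group 118 were lost (54.1%, exact 95% interval 47.3% to 60.9%). The middle group held 7 of the 12 and the weakest held 1, and all of these 8 were lost, against 163 of 215 (75.8%, 69.5% to 81.4%) and 166 of 222 (74.8%, 68.5% to 80.3%) elsewhere. Elsewhere the share lost was thus lower in the strongest group and alike in the middle and weakest groups. Calls rest on a q-value cutoff as well, so strength and call are not independent measures. The part of strength in the loss was not tested.

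**Figure D5:**
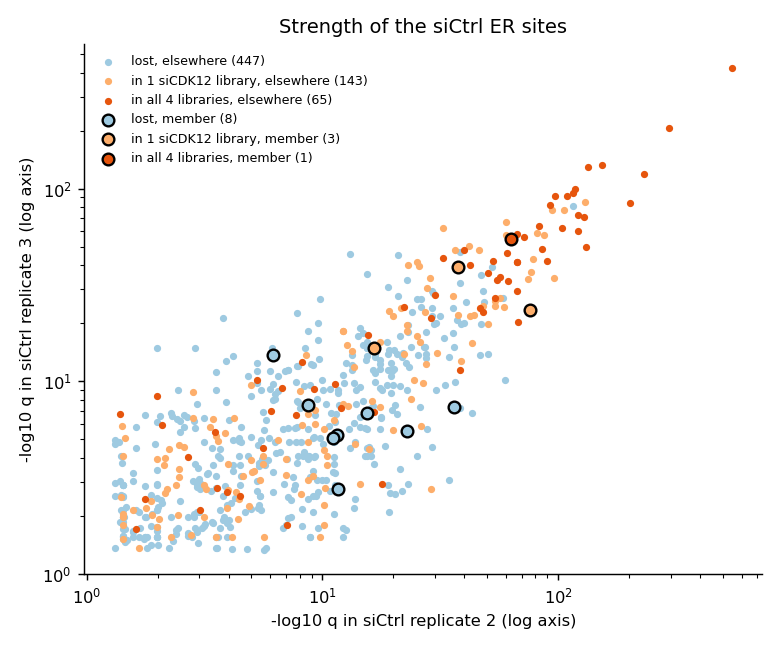
The -log10 q of the 667 siCtrl sites in siCtrl replicate 2 and siCtrl replicate 3, both on log axes, coloured by the siCDK12 call and with the 12 sites at the estrogen response genes outlined in black. The 4 outlined sites that were not lost lie toward the upper right, and the 8 lost ones in the middle of the cloud or below it.

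The share of sites with an element was much like that elsewhere. An element with at most 1 mismatch was found at 3 of 12 sites (25.0%, 5.49% to 57.2%) and at 172 of the 655 siCtrl sites elsewhere (26.3%, 22.9% to 29.8%), while windows of the same length 1000 bp downstream held one at 0 and 3 sites. With up to 2 mismatches the numbers were 8 of 12 (66.7%) and 363 of 655 (55.4%), and 0 and 51 (7.79%) in the downstream windows. The AP-1 motif was found at 3 of 12 sites (25.0%, 5.49% to 57.2%) and at 51 of 655 elsewhere (7.79%, 5.85% to 10.1%), against 1 and 27 (4.12%) downstream, and the exact intervals overlap. TGTTTAC, a forkhead motif searched on both strands, was at none of the 12 sites and at 11 of 655 (1.68%).

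Most ER sites at these genes were seen in 1 library only. Of the 71 sites at the 47 genes, 57 (80.3%) had a peak in a single library, against 94.8% of all 25365 sites. These 57 comprised 22 of siCtrl replicate 2, 13 of siCtrl replicate 3, 8 of siCDK12 replicate 3 and 14 of siCDK12 replicate 4. An element with at most 1 mismatch was at 4 of them (7.02%), as many as in the windows 1000 bp downstream. Such windows beside siCtrl sites elsewhere held one at 3 of 655 (0.458%). Windows beside single-library sites can reach another ER site, as at KRT19, where the single-library peak and the siCtrl site lie 22324 and 21438 bp from the start. This comparison therefore cannot tell whether the 57 sites stand out from the sequence beside them. In all, 33 of the 47 genes had a site in some library, 24 of these had no siCtrl site, and 14 had no peak in any library.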

How the data were processed

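ER ChIP-seq peak lists of 2 siCtrl and 2 siCDK12 libraries of LY2 cells were analysed. Peaks were called on the immunoprecipitated libraries, and the 4 input libraries were not analysed here. According to the study's methods, a divergent replicate of each condition had been left out. The authors mapped reads to GRCh38 with BWA and ran MACS2 on each library separately. The deposited fold is the ratio of pileup over local background, the deposited significance is a -log10 of the p-value and of the q-value, and the deposited score is derived from that p-value by the authors. No value is normalized between libraries. The study states a q-value of 0.05, but 20.4% to 28.0% of the peaks of a list exceed it, so it was applied here. Full lists, with all deposited peaks, were tried as an alternative that was chosen after seeing the data.

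Peaks on the 22 autosomes, X and Y were merged at an overlap of at least 1 bp and assigned to gene bodies of GENCODE release 44 with 50 kb either side. Rates in other genes were weighted to the members' window lengths in 10 bins. Whole-number pileups and backgrounds were solved from fold, taken as (pileup + 1) over (background + 1), and Poisson p. This was checked on used peaks other than those with the most extreme p-values, and 100% of the checked peaks were solved. The floor is the lowest background that 50 or more peaks of a library had in common. The element GGTCANNNTGACC, AP-1 TGANTCA and forkhead TGTTTAC were searched on both strands within 100 bp of the summit of the stronger siCtrl peak. Means were compared by two-sided exact permutation tests over 6 assignments. The study's differential test, with DiffBind, works on reads, and here the presence of peaks was compared instead. Merging and calling of sites, element search and solving were tested on simulated data, while the counts by gene window were not.

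The members and lists were chosen with earlier results of these data known. Values in every library were given for each gene with a siCtrl site, the elements of these sites were printed, and all other members were named with their peaks. Genes that are no member were named only where their start is nearest to a printed site. Python 3.11.15, numpy 2.4.6, SciPy 1.17.1, pysam 0.24.0 and matplotlib 3.10.9 were used.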

Additional observations from a re-analysis of the deposited data

How the results depend on the processing

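Of 95 values recomputed under another setting, 80 stayed within the limits set for the main value, 15 moved and none reversed. These limits were wide for the ratios. A ratio of peaks of 0.103, with a -log10 q of at least 5, counted as within them beside the main 0.475. So did a ratio of shares of 0.962, without siCtrl replicate 3, beside the main 0.716. With a fold of at least 5, siCtrl sites were found at 5 genes (1.07 by window length), with 6 siCtrl sites and 4 lost ones, since the sites of KRT19, SIAH2, SLC22A5 and SLC7A5 and the lost pair at CBFA2T3 dropped out, and the HSPB8 site and the CBFA2T3 site near the start turned to lost. Assigning sites to the nearest transcription start gave 5 lost sites, with KRT19, SLC7A5 and TJP3 dropped and CYP26B1 added. With no mismatch allowed, the element share was 0%. An equal number of peaks from each library gave a ratio of 0.540 for the peaks at these genes and again 9 genes, 12 siCtrl sites and 8 lost ones. Leaving out each library in turn gave ratios of peaks from 0.403 to 0.580 and of shares from 0.571 to 0.962. The genes with a siCtrl site then numbered 9 to 25, siCtrl sites 12 to 36, lost sites 9 to 30, kept sites 1 to 3 and gained sites 0 to 14. By construction, a condition left with 1 library counts every single-library peak: without siCtrl replicate 2 there were 18 genes (9.59 by window length) and 21 lost sites, without siCtrl replicate 3 there were 25 genes (17.2) and 30 lost sites, and without siCDK12 replicate 3 or 4 there were 14 or 8 gained sites and 2 or 3 kept ones. No paired analysis was possible because siCtrl and siCDK12 have a single replicate number, 3, in common. The lists give no read depth, so a site without a peak is not shown to be free of ER.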

Other observations

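A list of 20 other ER target genes, which was likewise drawn up with earlier results known, can be set beside the 47 genes. Of these 20, 11 had a siCtrl site, 3 had a kept site (GREB1, TFF1 and ASB13) and none had a gained site. A lost site was found at 8 of them, ABCA3, FKBP4, GREB1, NRIP1, PDZK1, RARA, SERPINA1 and XBP1. GREB1 had 3 siCtrl sites, of which 2 were lost and 1 was kept. IGFBP4 had a siCtrl site with a peak in 1 siCDK12 library. Over the 19986 protein-coding genes outside the 47, the shares were 3.67% with a siCtrl site, 2.83% with a lost, 0.490% with a kept and 0.290% with a gained site. Since the 20 were listed as known ER targets, their counts are no independent finding either. ABCA3, a lipid transporter, had 2 lost sites among 6 in all, and XBP1, a transcription factor of the unfolded protein response, and PDZK1, a scaffold protein, each had 1. PGR, the progesterone receptor, had no peak in any library, as did CXCL12, BCL2 and IRS1. No test was made between both lists.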
